A study of Homo sapiens with 12 samples.

Results

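The table deposited for SH-SY5Y cells transfected with tau constructs holds 35 genes whose symbols are those of cytosolic translation factors, aminoacyl-tRNA synthetases or their scaffold proteins, out of 1676 genes in all. The members were chosen by name only: every row whose gene symbol begins as an initiation factor (EIF and a digit) or an elongation factor (EEF and a digit), is a release factor, or is a synthetase or multisynthetase scaffold. No row that matched was a pseudogene in GENCODE release 29, so 0 were removed. The members are 18 initiation factors, 6 elongation factors and 11 synthetases and scaffold proteins. GENCODE lists 111 protein-coding genes whose symbols match the same rule, so the table holds 35 of 111.

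SH-SY5Y is an established human neuroblastoma line, labelled as derived from a metastatic bone tumour and often used as a model of neurons. Polyadenylated RNA was taken 24 h after transfection with wild-type tau (Tau-WT, the reference), tau with a lysine replaced by glutamine (Tau-K174Q), tau with a serine replaced by glutamate (Tau-S199E), or tau with both changes (Tau-K174Q-S199E). Glutamine is widely used as a mimic of acetylated lysine and glutamate as a mimic of phosphorylated serine. There were 3 libraries per construct and 12 in all, read near the 3′ ends of transcripts, and no untransfected cells are among them. All 4 groups received a tau construct, so no comparison shows the effect of tau itself. Libraries keep the numbers of the deposited table: 1, 2 and 3 for Tau-WT, 4, 5 and 6 for Tau-K174Q, 10, 11 and 12 for Tau-S199E, and 16, 17 and 18 for Tau-K174Q-S199E. The labels do not say that replicates came from separate cultures. The p-values below speak only of how far these libraries scatter, and that scatter could be technical.

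Each deposited value is standardised, so that every gene averages 0 with an SD of 1 across its 12 values. A value is therefore a position within a gene's own range, in SD units of that gene. It gives no level, no depth and no fold size, and levels cannot be compared between genes. The authors kept only genes with an adjusted p under 0.05 in a contrast that the header does not name. In the authors' deposited table the fold change had the opposite sign to Tau-S199E minus Tau-WT in 1676 of 1676 genes, and the same sign as the K174Q by S199E interaction in as many. Calls in these contrasts are therefore not independent of how the table was made, and each count is set beside the share of all 1676 genes called in the same way. Of the markers listed for sympathoadrenal neuroblastoma 0 of 17 were in the table, of those for fibroblasts 1 of 5 (LUM) and of those for blood cells 0 of 3. A table of selected, standardised genes cannot be used to check the identity of the cells. Cells carrying less of a transcript and fewer cells carrying it cannot be told apart in bulk RNA.

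Translation begins when the initiation factors load an initiator tRNA onto the small ribosomal subunit, bring it to the capped messenger through the eIF4 proteins, and scan to a start codon. The eIF2 complex carries the initiator tRNA, and its phosphorylation by stress kinases slows general translation. Elongation factors of the eEF1 group then deliver charged tRNAs and eEF2 moves the ribosome along, while aminoacyl-tRNA synthetases charge each tRNA with its amino acid. Several synthetases are held in a large complex by scaffold proteins. Many factors of this machinery are made from messengers that begin with a pyrimidine tract, the 5′ terminal oligopyrimidine (TOP) motif, through which mTOR signalling controls their translation. Many synthetase genes are targets of the transcription factor ATF4. In neurons, regulated initiation supports synaptic plasticity, and inherited changes in several synthetases cause peripheral neuropathy.

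The start regions of the members were read because these sequence features bear on their regulation and were not used to choose them. RefSeq promoters (GRCh38.p14, 250 bases before to 50 after the annotated start) were matched for 29 of the 35 members. A C at the annotated start followed by at least 4 bases of C or T was present in 7 of the 29 (24.1%), against 4.04% of 27305 promoters and 4.6% of the 15843 of protein-coding genes. The 7 genes are shown from 15 bases before the start, with the pyrimidine run in capitals beginning at the start itself:
EEF1A1 (chr6:73521018-73521047, minus strand): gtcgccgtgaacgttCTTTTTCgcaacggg
EEF2 (chr19:3985449-3985478, minus strand): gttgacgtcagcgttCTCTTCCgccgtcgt
EIF2A (chr3:150546772-150546801, plus strand): tcacccgagcggtttCTCTTTCCgggacaa
EIF2D (chr1:206612451-206612480, minus strand): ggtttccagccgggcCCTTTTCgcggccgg
EIF3D (chr22:36529152-36529181, minus strand): gcgcgcgcatgtttcCTCTTTTCCTggttt
EIF3F (chr11:7987322-7987351, plus strand): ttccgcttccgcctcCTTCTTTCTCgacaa
EIF3M (chr11:32583816-32583845, plus strand): gcgcggcccagttccCTTTTCCggtcggcg

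The element TGATGNAAN, searched on both strands as a form of the site bound by ATF4, was present in 2 of the 29 promoters (6.9%), against 3.67% of all promoters and 2.53% of those of protein-coding genes. Both are synthetase genes and both matches lie on the minus strand relative to the gene, so the capitals show the complementary letters:
MARS (chr12:57488052-57488081, plus strand): ggccggttccgGTTGCATCAgcgagggatt
TARS (chr5:33440955-33440984, plus strand): ggcgcctttcgATTGCATCAgctggtccag
The E-box CACGTG, which reads the same on both strands and is bound by MYC and related factors, was in the promoters of 5 of the 29 (17.2%), against 7.43% of all promoters and 8.88% of those of protein-coding genes. These were EIF1B, EIF3F, EIF4A3, EIF4G1 and EIF4H. A match is a description of these letters, not evidence of binding. No promoter was printed for EEF1D, EIF2S2, EIF3A, EIF3E, EIF3L and VARS.

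With Tau-S199E, 32 of the 35 members differed from Tau-WT (limma, adjusted p under 0.05), and they split evenly: 16 rose and 16 fell. Over all 1676 genes 90.0% passed, 48.3% higher and 41.8% lower, and the share of members called (91.4%) was close to this background. The libraries of the 2 constructs did not overlap in 31 members, against 94.2% of the table. The median size of the difference was 1.97 SD units over the 35 members and 1.99 over all 1676 genes. The 3 members that did not pass were EIF2D (1.37, adjusted p = 0.0677), EIF5AL1 (-1.43, adjusted p = 0.065) and SARS (-1.44, adjusted p = 0.0736). The members had no common direction, and they are described below by role. Without Tau-S199E library 12 the number of members that passed was 15, when 49.7% of the table passed, and in a fit of the 6 Tau-WT and Tau-S199E libraries alone it was 20, against 72.0%.

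**Figure D1:**
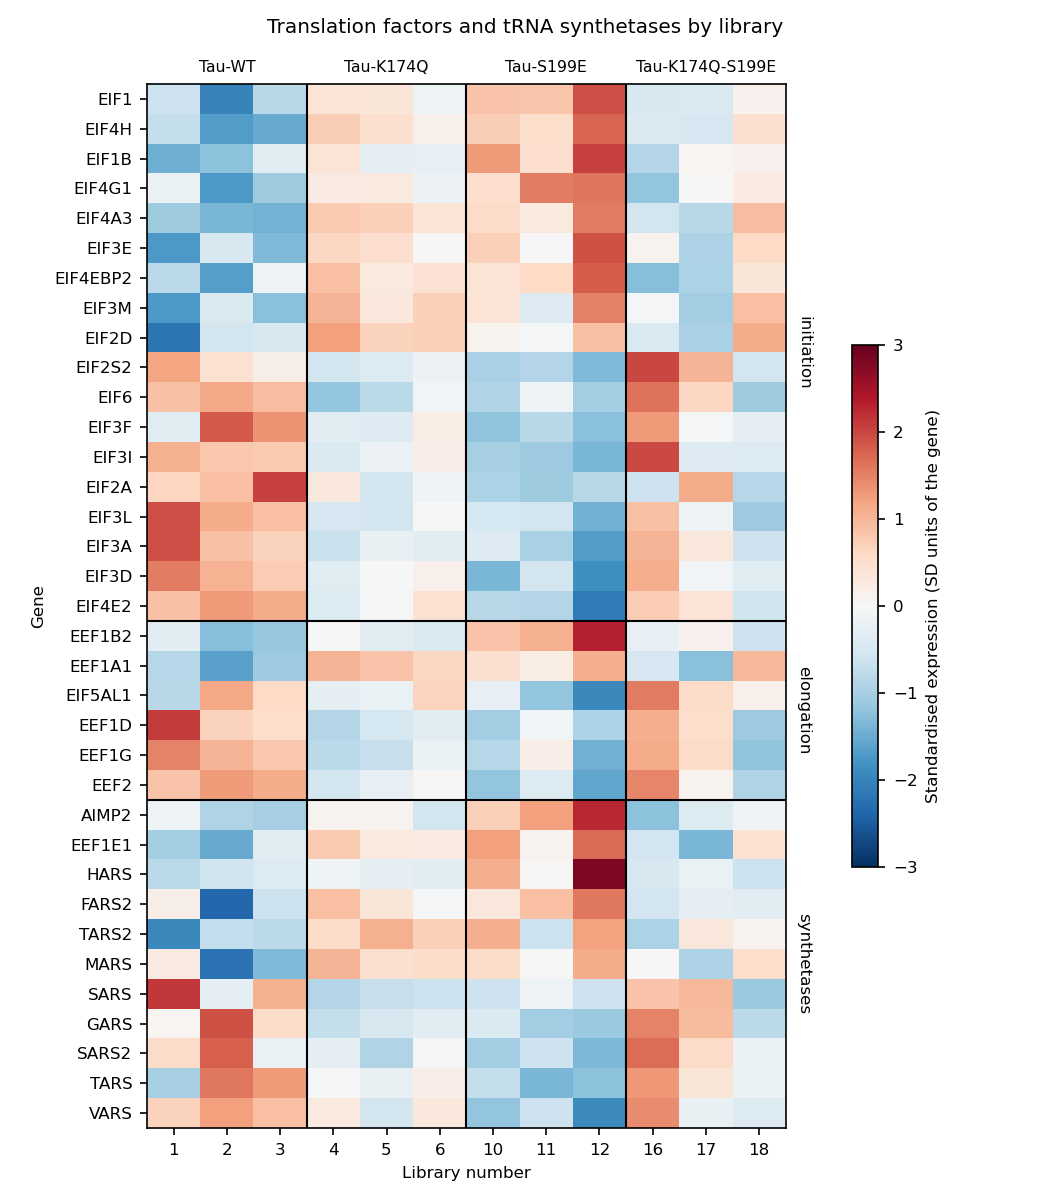
Standardised expression of the 35 members (rows, in SD units of each gene) in the 12 libraries (columns, by library number and construct), with initiation factors, elongation factors and synthetases apart and each class ordered by Tau-S199E minus Tau-WT. In each class genes high with Tau-WT stand beside genes low with it, and Tau-S199E library 12 carries the most extreme value of 14 of the 35 genes, as it does in 50.6% of the whole table.

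Among the initiation factors 8 rose, 9 fell and 1 did not pass. With Tau-S199E, 2 of 2 start codon factors and 3 of 4 cap-binding and helicase proteins rose, EIF4A3 among the latter. The eIF3 subunits fell in 5 of 7 cases. Over all 1676 genes 48.3% passed as higher and 41.8% as lower. These role counts are small, and whether they depart from that split was not tested.

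EIF1, the small factor that guards the accuracy of start codon choice, stood at -0.63, -2.0 and -0.83 with Tau-WT and at 0.85, 0.84 and 1.93 with Tau-S199E. The libraries of these constructs did not overlap, and the difference was 2.36 SD units (SE 0.44, limma adjusted p = 0.00968). With Tau-K174Q EIF1 lay between them, at 0.41, 0.36 and -0.16, and with Tau-K174Q-S199E at -0.47, -0.43 and 0.14. EIF1B, the paralogue of EIF1, had values of -1.47, -1.23 and -0.31 with Tau-WT and of 1.28, 0.51 and 2.06 with Tau-S199E, a difference of 2.28 (SE 0.49, limma adjusted p = 0.01). Its Tau-K174Q libraries (0.4, -0.29 and -0.25) and Tau-K174Q-S199E libraries (-0.88, 0.06 and 0.12) all lay below those of Tau-S199E. Both genes thus had Tau-S199E as the highest construct and Tau-WT as the lowest. In the authors' deposited table their log2 fold changes were -1.448 for EIF1 and -1.749 for EIF1B.

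Of the 4 members that belong to the cap-binding and helicase group, 3 rose and 1 fell. EIF4H, which stimulates the helicase eIF4A, rose from -0.72, -1.68 and -1.52 with Tau-WT to 0.73, 0.52 and 1.74 with Tau-S199E (difference 2.30, SE 0.43, limma adjusted p = 0.00968). Its Tau-K174Q values of 0.74, 0.49 and 0.16 were also above every Tau-WT library, and so were those of Tau-K174Q-S199E (-0.43, -0.51 and 0.49). EIF4A3, an RNA helicase best known as a core protein of the exon junction complex rather than of initiation, rose by 2.09 (SE 0.48, limma adjusted p = 0.0104). EIF4G1, the scaffold that joins the cap-binding protein to the helicase, rose by 2.22 (SE 0.52, limma adjusted p = 0.0104). The authors' deposited table gives log2 fold changes of -2.248 for EIF4A3, -1.876 for EIF4G1 and -1.79 for EIF4H.

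EIF4E2, also called 4EHP, binds the cap without recruiting EIF4G1 and is known as a repressor of translation. It went the other way: 0.87, 1.28 and 1.12 with Tau-WT, -0.83, -0.89 and -2.1 with Tau-S199E (difference -2.36, SE 0.45, limma adjusted p = 0.00981). With Tau-K174Q it stood at -0.41, -0.07 and 0.46 and with Tau-K174Q-S199E at 0.75, 0.4 and -0.59, below every Tau-WT library and above every Tau-S199E library in both. EIF4EBP2, an inhibitor that competes for the cap-binding protein eIF4E and is the main such protein of the brain, rose with Tau-S199E by 1.81 (SE 0.58, limma adjusted p = 0.0217). A repressor that fell and an inhibitor that rose were therefore both among the members. The gene of eIF4E itself is not among the rows analysed here.

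**Figure D2:**
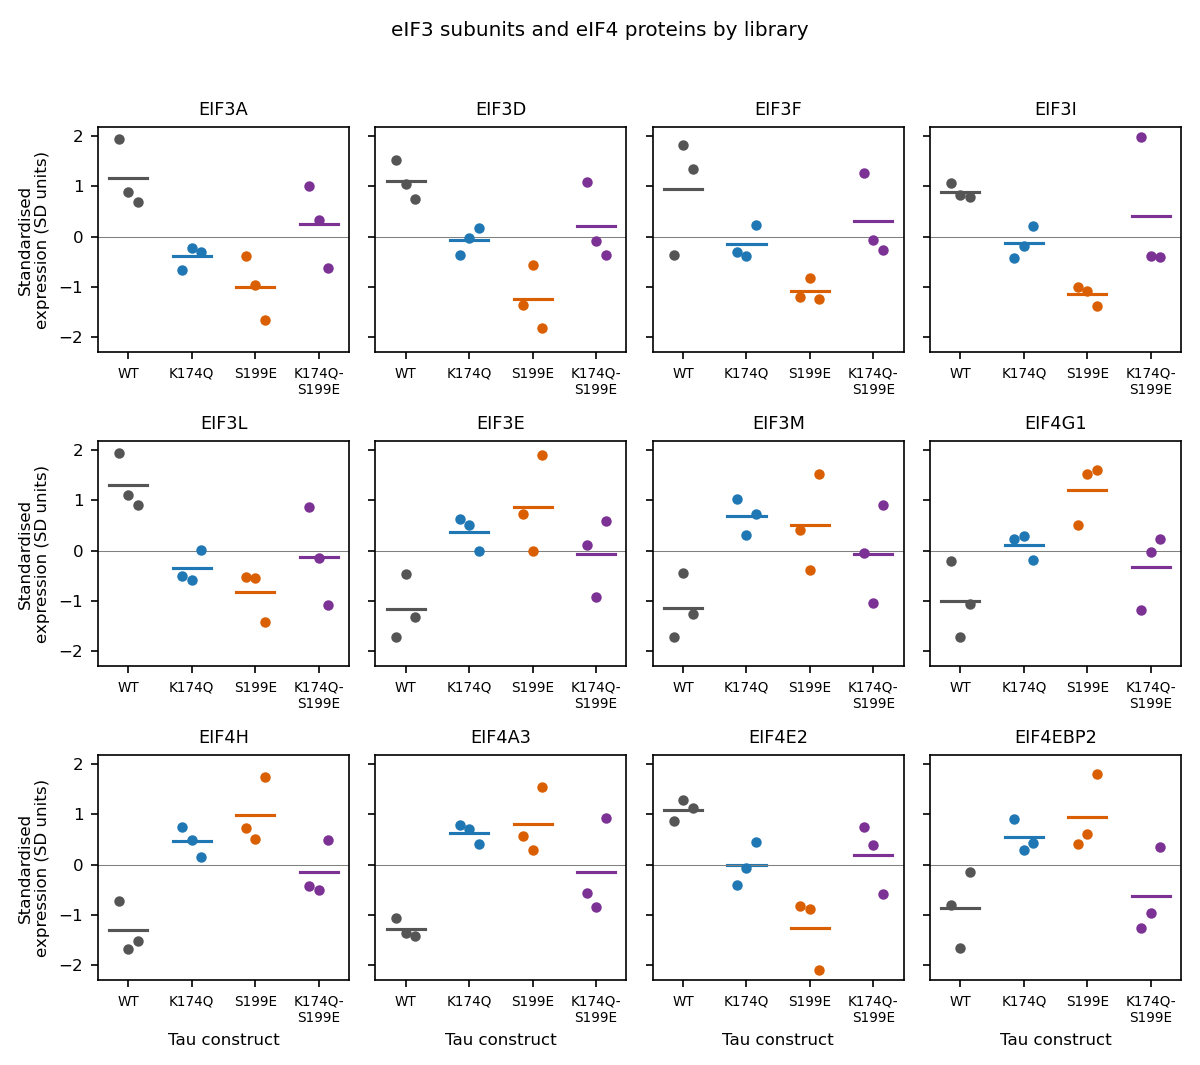
Standardised expression (vertical axis, SD units of each gene) of the eIF3 subunits, the eIF4 proteins and EIF4EBP2 by tau construct, with 1 point per library and a bar at the mean of 3 libraries. The means of EIF4H and EIF4G1 are lowest with Tau-WT and highest with Tau-S199E, those of EIF4E2 and EIF3D are the reverse, and the bars of Tau-K174Q-S199E lie between.

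The eIF3 complex, the largest initiation factor and the one that bridges the small subunit and the eIF4 proteins, had 7 of its 14 listed genes in the table. All 7 passed with Tau-S199E, where 90.0% of the table passed: EIF3A, EIF3D, EIF3F, EIF3I and EIF3L fell, and EIF3E and EIF3M rose. Without Tau-S199E library 12 only EIF3A, EIF3D and EIF3L of these passed, when 49.7% of the table passed. EIF3A, the scaffold subunit, stood at 1.94, 0.88 and 0.69 with Tau-WT and at -0.39, -0.97 and -1.67 with Tau-S199E (difference -2.18, SE 0.51, limma adjusted p = 0.0106). EIF3D, which can bind the cap of some messengers, fell from 1.53, 1.05 and 0.75 to -1.36, -0.56 and -1.83 (difference -2.36, SE 0.45, limma adjusted p = 0.00981). In both genes the libraries of the 2 constructs did not overlap.

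With Tau-K174Q, EIF3A lay at -0.66, -0.22 and -0.31, overlapping its Tau-S199E values, whereas EIF3D lay at -0.37, -0.02 and 0.16, above all its Tau-S199E values. The other falls were those of EIF3L (-2.15, SE 0.52), EIF3I (-2.05, SE 0.58) and EIF3F (-2.03, SE 0.61), with limma adjusted p from 0.0111 to 0.0176. EIF3E, also known as INT6, rose by 2.05 (SE 0.59, limma adjusted p = 0.0159) and EIF3M by 1.65 (SE 0.64, limma adjusted p = 0.0379). EIF3E and EIF3M had close values with Tau-WT. EIF3E had -1.73, -0.47 and -1.32 with Tau-WT, and EIF3M had -1.72, -0.44 and -1.26. With Tau-K174Q-S199E they had 0.11, -0.93 and 0.59, and -0.04, -1.05 and 0.91. They lay farthest apart in Tau-K174Q library 6, at -0.01 in EIF3E and 0.72 in EIF3M. With Tau-WT, EIF3E and EIF3M thus stood below 0 in each library, where EIF3A and EIF3D stood above it. The log2 fold changes of the 7 in the authors' deposited table had sizes of 0.58 to 1.23 and a median size of 0.91, below the 1.36 of all 1676 genes.

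Of the genes grouped with eIF2 and initiator tRNA delivery 3 of 6 were in the table. EIF2S2, the beta subunit of eIF2, fell with Tau-S199E by 1.67 (SE 0.58, limma adjusted p = 0.0275). EIF2A, which is not a subunit of eIF2 but a separate protein that can deliver initiator tRNA, fell by 2.15 (SE 0.57, limma adjusted p = 0.0131). EIF2D, another tRNA-delivering and recycling factor, had values of -2.18, -0.56 and -0.48 with Tau-WT and of 0.1, -0.07 and 0.87 with Tau-S199E. Its libraries did not overlap, but the difference did not pass. EIF6, which keeps free large ribosomal subunits from joining, fell by 1.67 (SE 0.63, limma adjusted p = 0.0364). The table held 0 of the 5 listed subunits of the exchange factor eIF2B and 0 of the 4 listed eIF2 kinases, and no statement is made on genes outside it.

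Among the elongation factors 2 rose, 3 fell and 1 did not pass, where 48.3% of the table passed as higher and 41.8% as lower. The eEF1 complex divided like eIF3, and whether counts this small depart from the table was not tested. EEF1A1, which carries charged tRNA to the ribosome, stood at -0.85, -1.62 and -1.1 with Tau-WT and at 0.48, 0.22 and 1.1 with Tau-S199E (difference 1.79, SE 0.53, limma adjusted p = 0.0176). EEF1B2, the alpha subunit of the exchange complex that recharges it with GTP (eEF1B alpha), rose from -0.35, -1.27 and -1.13 to 0.86, 1.06 and 2.32 (difference 2.33, SE 0.42, limma adjusted p = 0.00968). In both genes no Tau-WT library reached any Tau-S199E library. With Tau-K174Q EEF1A1 stood at 1.02, 0.85 and 0.63, near its highest values, and EEF1B2 at 0.01, -0.32 and -0.43, below all its Tau-S199E values. EEF1A1 had the largest log2 fold change of the members in the authors' deposited table (-2.467) and EEF1B2 the smallest (-0.4875), which the standardised values do not show.

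The other subunits of the exchange complex fell. EEF1D, the delta subunit and itself an exchange factor, stood at 2.1, 0.69 and 0.53 with Tau-WT and at -1.05, -0.09 and -0.96 with Tau-S199E (difference -1.81, SE 0.63, limma adjusted p = 0.0278). EEF1G, which anchors the complex, stood at 1.48, 1.02 and 0.81 and at -0.86, 0.19 and -1.45 (difference -1.81, SE 0.63, limma adjusted p = 0.028). In both, Tau-S199E library 11 was the nearest to Tau-WT, and the Tau-K174Q-S199E libraries spread widely: 1.08, 0.53 and -1.1 in EEF1D and 1.12, 0.58 and -1.21 in EEF1G. The Tau-K174Q values were -0.88, -0.53 and -0.33 in EEF1D and -0.81, -0.68 and -0.2 in EEF1G. By their means, the alpha subunit of the exchange complex was thus highest with Tau-S199E, and the other subunits were highest with Tau-WT. Without library 12 EEF1D and EEF1G did not pass against Tau-WT (limma adjusted p = 0.0806 and 0.0941), whereas EEF1B2 did. EEF1B2 and EEF1G also share most of their 3′ ends with other genes (80.9% and 99.6% of windows, described below), so this division is uncertain.

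EEF2, the translocase, had closely spaced Tau-WT libraries at 0.86, 1.28 and 1.12 and Tau-S199E libraries at -1.19, -0.4 and -1.57 (difference -2.14, SE 0.56, limma adjusted p = 0.0131). Its Tau-K174Q libraries lay at -0.54, -0.25 and 0.03 and its Tau-K174Q-S199E libraries at 1.46, 0.1 and -0.91. EEF2 was the gene among the falling elongation factors that passed with each single library of the compared constructs left out. EIF5AL1, a gene similar to that of eIF5A, the hypusine-bearing factor that relieves stalled ribosomes, was the member that passed neither here nor in the interaction. It had values of -0.84, 1.16 and 0.59 with Tau-WT and of -0.29, -0.21 and 0.66 with Tau-K174Q. With Tau-S199E it stood at -0.25, -1.18 and -1.94 and with Tau-K174Q-S199E at 1.56, 0.57 and 0.16. Its Tau-WT and Tau-S199E libraries overlapped through library 1.

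**Figure D3:**
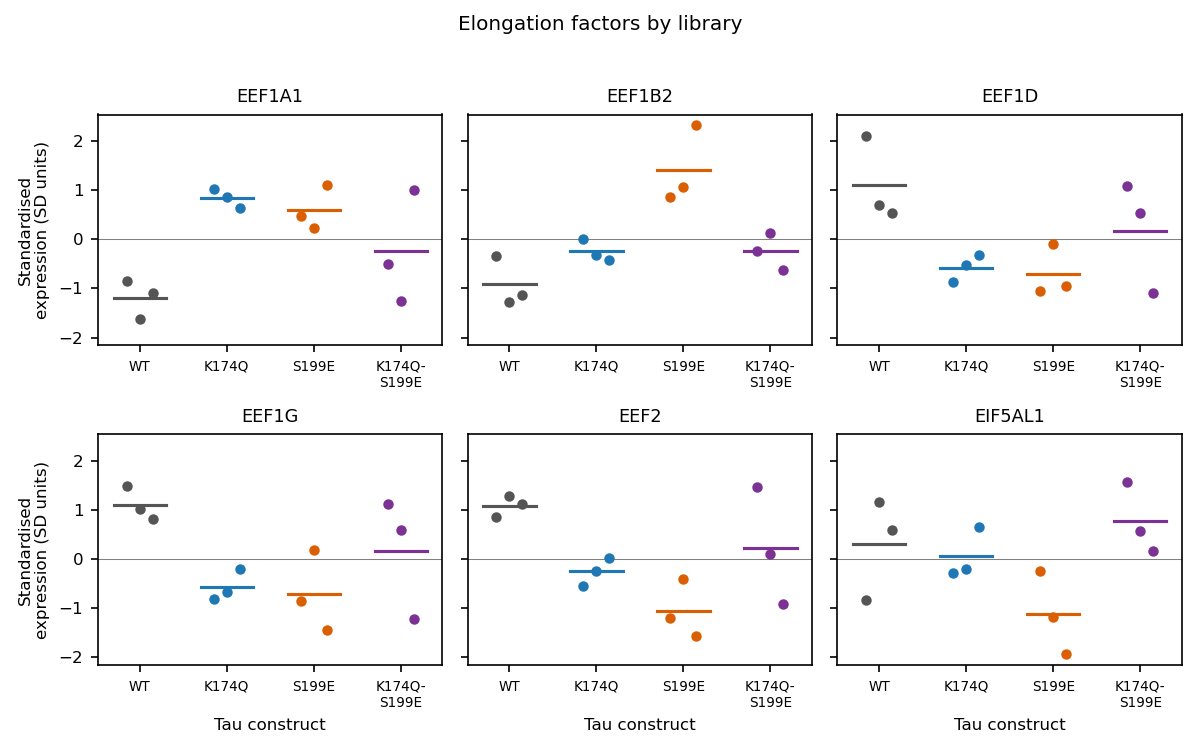
Standardised expression (vertical axis, SD units of each gene) of the 6 elongation factors by tau construct, with 1 point per library and a bar at the mean of 3 libraries. EEF1A1 and EEF1B2 are lowest with Tau-WT, whereas EEF1D, EEF1G and EEF2 are highest with it, and the Tau-K174Q-S199E libraries of these last 3 genes spread to both sides of 0.

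Among the synthetases and scaffold proteins 6 rose, 4 fell and 1 did not pass, where 48.3% of the table passed as higher and 41.8% as lower. Both scaffold proteins in the table rose, and whether such small counts depart from that split was not tested. AIMP2, a core scaffold of the multisynthetase complex, stood at -0.13, -0.91 and -1.0 with Tau-WT and at 0.71, 1.23 and 2.26 with Tau-S199E (difference 2.08, SE 0.47, limma adjusted p = 0.0104). EEF1E1, which despite its symbol is a scaffold of the same complex (AIMP3), stood at -1.03, -1.51 and -0.34 and at 1.22, 0.11 and 1.7 (difference 1.97, SE 0.57, limma adjusted p = 0.0161). The libraries of the 2 constructs did not overlap in either. AIMP2 stood at 0.08, 0.1 and -0.55 with Tau-K174Q and at -1.24, -0.42 and -0.12 with Tau-K174Q-S199E, so that its 3 highest values were those of Tau-S199E. EEF1E1 was intermediate with Tau-K174Q, at 0.78, 0.3 and 0.25.

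Of 18 listed cytosolic synthetases 6 were in the table; HARS and MARS rose, GARS, TARS and VARS fell, and SARS did not pass. HARS, the histidyl enzyme, stood at -0.81, -0.6 and -0.4 with Tau-WT and at 1.08, 0.03 and 2.79 with Tau-S199E (difference 1.90, SE 0.58, limma adjusted p = 0.019). Its Tau-S199E libraries were spread over a wide range, and library 12 holds its highest value. MARS, the methionyl enzyme and a member of the multisynthetase complex, rose by 1.65 (SE 0.65, limma adjusted p = 0.0403), with Tau-WT library 1 (0.27) inside the range of Tau-S199E.

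VARS, the valyl enzyme, which is known to bind the eEF1 exchange complex, fell from 0.7, 1.22 and 0.91 with Tau-WT to -1.18, -0.62 and -1.91 with Tau-S199E (difference -2.18, SE 0.54, limma adjusted p = 0.0116). With Tau-K174Q it stood at 0.3, -0.55 and 0.32, above each Tau-S199E library. TARS, the threonyl enzyme, had Tau-WT values of -0.99, 1.59 and 1.28 and Tau-S199E values of -0.72, -1.37 and -1.22 (difference -1.73, SE 0.67, limma adjusted p = 0.0389). Its Tau-WT library 1 lay among the Tau-S199E libraries, so the call rests on a comparison whose libraries overlapped. GARS, the glycyl enzyme that serves both cytosol and mitochondria, fell by 1.69 (SE 0.65, limma adjusted p = 0.0372). SARS, the seryl enzyme, had Tau-WT values of 2.11, -0.26 and 1.06 and Tau-S199E values of -0.62, -0.16 and -0.63, which overlapped.

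Of 17 listed mitochondrial synthetases 3 were in the table. FARS2 (phenylalanyl) rose by 1.89 (SE 0.62, limma adjusted p = 0.0235) and TARS2 (threonyl) by 1.71 (SE 0.59, limma adjusted p = 0.0268). SARS2 (seryl) fell from 0.58, 1.79 and -0.2 with Tau-WT to -1.04, -0.61 and -1.35 with Tau-S199E (difference -1.73, SE 0.61, limma adjusted p = 0.029). Its Tau-K174Q-S199E libraries, at 1.68, 0.58 and -0.19, covered nearly the same range as Tau-WT. The threonyl enzymes of cytosol and mitochondria went opposite ways with Tau-S199E, TARS down and TARS2 up. Neither passed without library 12 (limma adjusted p = 0.0945 for TARS and 0.0894 for TARS2). The seryl enzymes SARS, which did not pass, and SARS2 both had negative differences (-1.44 and -1.73). Of the 2 genes with the ATF4-type element at the start, MARS rose and TARS fell. Of the 7 genes with a pyrimidine run at the start, EEF1A1 and EIF3M rose, EEF2, EIF2A, EIF3D and EIF3F fell, and EIF2D did not pass.

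**Figure D4:**
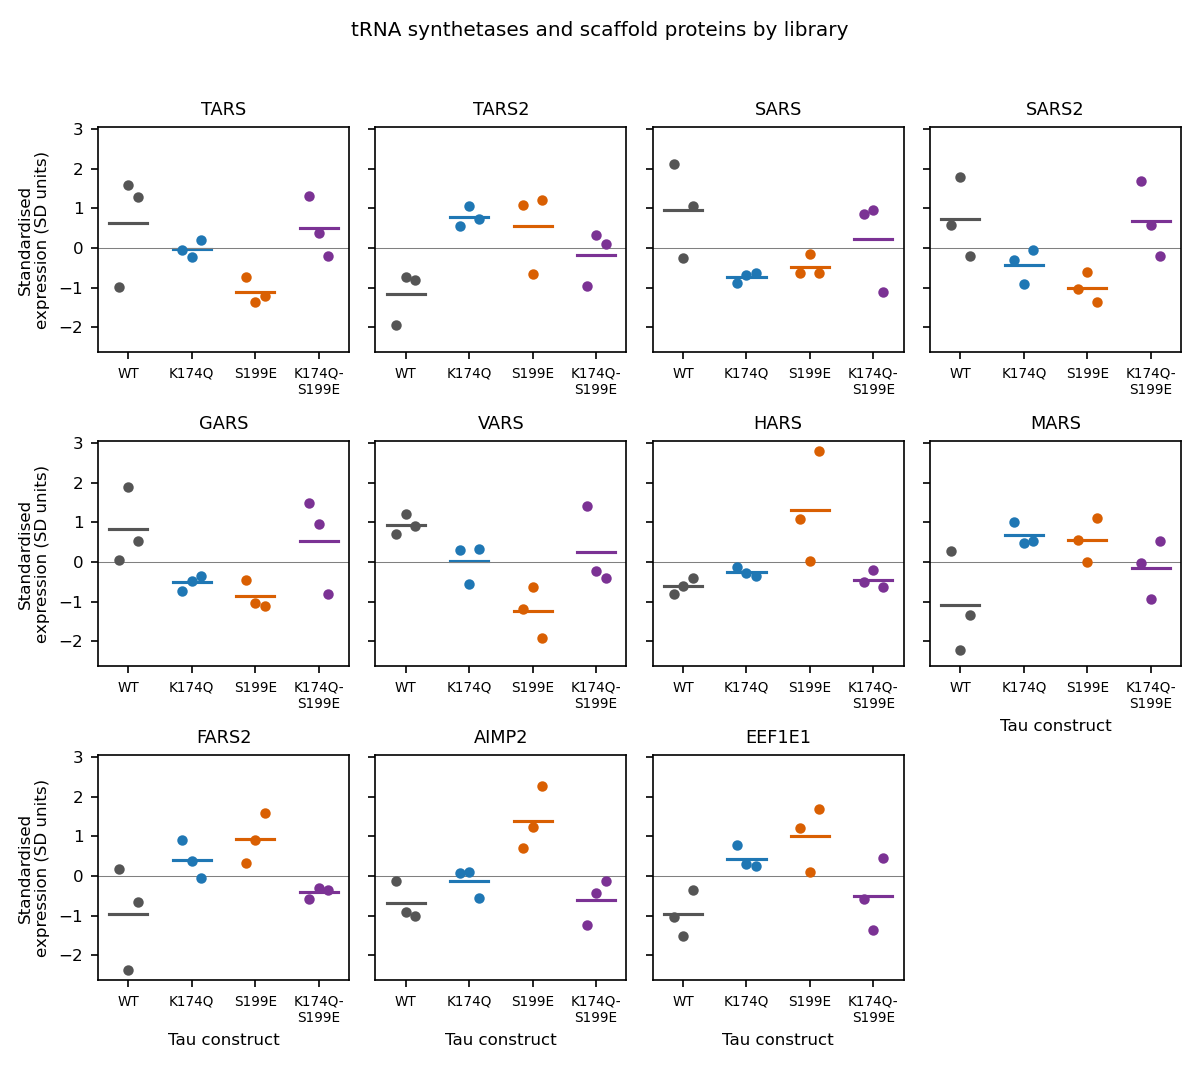
Standardised expression (vertical axis, SD units of each gene) of the 11 synthetases and scaffold proteins by tau construct, with 1 point per library and a bar at the mean of 3 libraries. The Tau-S199E libraries of AIMP2 are the 3 highest of that gene, and the highest value of the panel set is HARS in Tau-S199E library 12 (2.79).

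Tau-S199E library 12 lay farther to the Tau-S199E side than libraries 10 and 11 in 32 of the 35 members, as in 85.5% of the table, and the SD over the members was 1.63 in library 12 against 0.85 and 0.74 in libraries 10 and 11. The depth and RNA quality of the libraries are unknown, and their part in this was not tested. Without library 12, 10 initiation factors, 2 elongation factors and 3 synthetases or scaffold proteins passed. In that comparison EIF1B differed by 1.89 (SE 0.48), EIF4H by 1.93 (SE 0.40), EEF1B2 by 1.87 (SE 0.33) and EIF2A by -2.21 (SE 0.68). With 2 Tau-S199E libraries the first 3 of these differences were smaller than with all 3, and that of EIF2A was slightly larger. With each library of the compared constructs left out in turn, 14 of the 32 members passed every time, which is 40.0% of the 35 members against 47.8% of the table: AIMP2, EEF1B2, EEF2, EIF1, EIF1B, EIF2A, EIF3A, EIF3D, EIF3L, EIF4A3, EIF4E2, EIF4G1, EIF4H and VARS.

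With Tau-K174Q, the acetylation mimic alone, 0 of the 35 members passed against Tau-WT, as did 0% of the table (limma). At an unadjusted p under 0.05 there were 21 members, against 51.9% of the table, and moderated variances called 21, against 59.9%. The libraries did not overlap in 28 members, against 80.7% of the table. EEF1A1 had the largest difference (2.02, SE 0.53, limma adjusted p = 0.066), followed by EIF2D (1.95, SE 0.64, limma adjusted p = 0.0674), TARS2 (1.94, SE 0.59, limma adjusted p = 0.066) and EIF4A3 (1.92, SE 0.48, limma adjusted p = 0.066). The lowest differences were those of SARS (-1.71, SE 0.69), EEF1D (-1.69, SE 0.63) and EIF3L (-1.68, SE 0.52), with limma adjusted p from 0.0662 to 0.0873.

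Without libraries 12 and 18, which are not Tau-K174Q or Tau-WT libraries and enter only the shared spread, 19 members passed against 58.5% of the table. They included EIF4A3 (1.92, SE 0.16, limma adjusted p = 0.00418), EEF1A1 (2.02, SE 0.28, limma adjusted p = 0.00686) and EIF4H (1.77, SE 0.28, limma adjusted p = 0.00859). In a fit of the 6 libraries of Tau-K174Q and Tau-WT alone 15 members passed, against 48.9%. This comparison and that of Tau-S199E share the Tau-WT libraries, so their values are given side by side only: EIF2D differed from Tau-WT by 1.95 with Tau-K174Q and 1.37 with Tau-S199E, HARS by 0.35 and 1.90, and AIMP2 by 0.56 and 2.08.

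**Figure D5:**
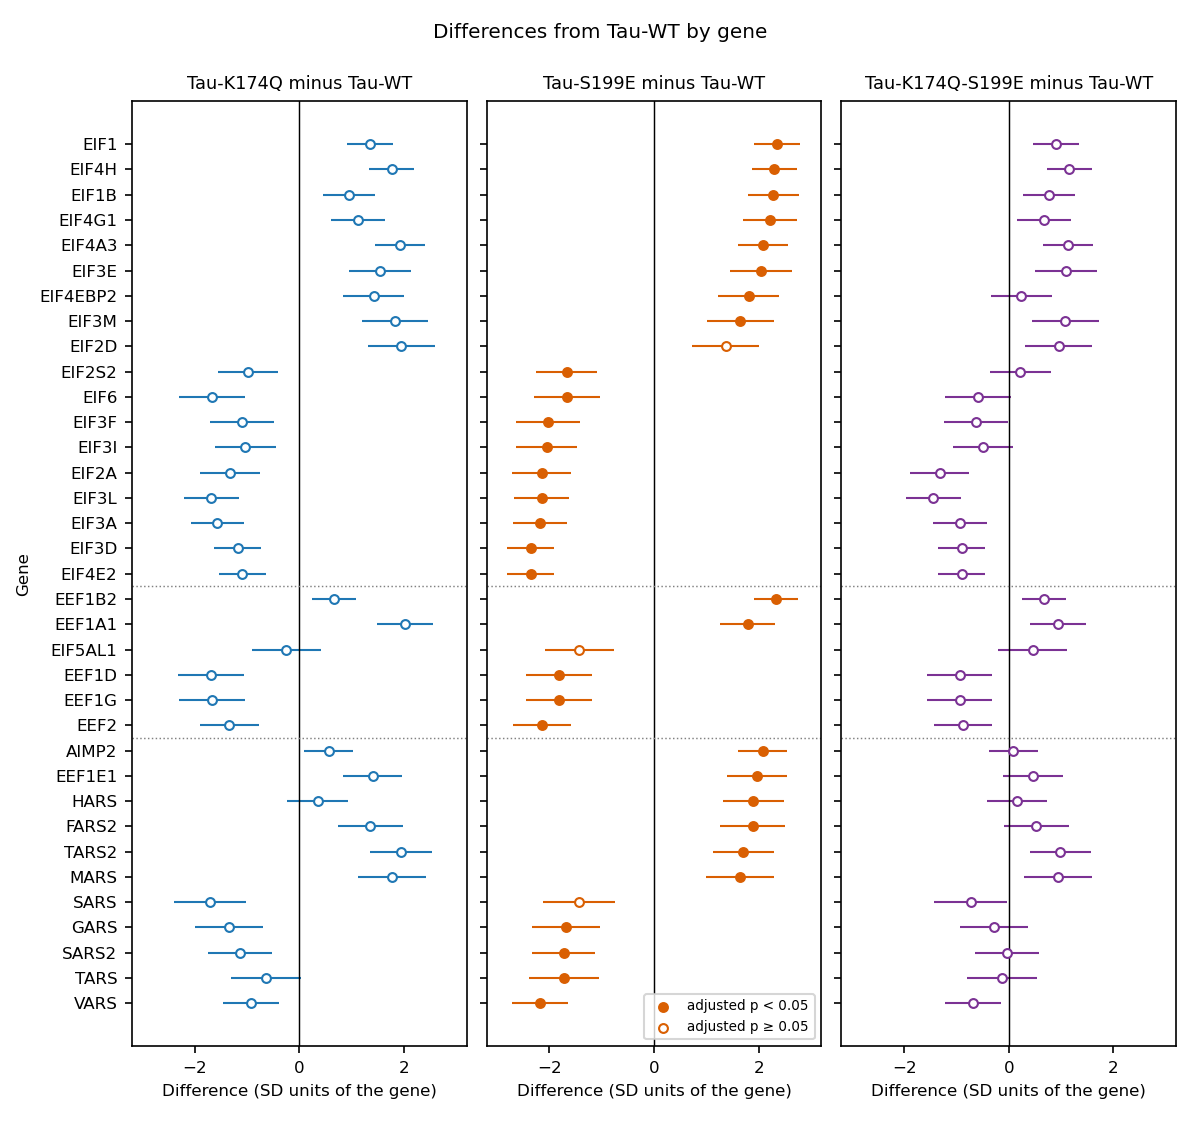
Difference of each construct from Tau-WT (horizontal axis, SD units of each gene) for the 35 members, with bars of 1 SE on either side, filled where the limma adjusted p was under 0.05. Filled points stand only in the Tau-S199E panel, where 32 of 35 are filled, and the points of Tau-K174Q-S199E are the nearest to 0 by their median size (0.77). The 3 panels share the Tau-WT libraries.

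Directly compared, Tau-K174Q and Tau-S199E differed in 0 of 35 members (limma), against 0.0597% of the table, which is 1 gene. At an unadjusted p under 0.05 there were 7 members, against 16.1% of the table, and moderated variances called 0. These were EEF1B2 (-1.66, SE 0.42), HARS (-1.55, SE 0.58), AIMP2 (-1.52, SE 0.47), EIF1B (-1.33, SE 0.49), EIF4E2 (1.27, SE 0.45), VARS (1.26, SE 0.54) and EIF3D (1.18, SE 0.45), given as Tau-K174Q minus Tau-S199E. The libraries of these constructs did not overlap in 15 members, against 36.2% of the table. The same difference was 0.12 in EEF1D (SE 0.63) and 0.12 in MARS (SE 0.65).

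Tau-K174Q-S199E, which carries both mimics, differed from Tau-WT in 0 of 35 members (limma), against 0% of the table. At an unadjusted p under 0.05 there were 4 members, EIF3L (-1.44, SE 0.52), EIF2A (-1.32, SE 0.57), EIF4H (1.16, SE 0.43) and EIF4A3 (1.13, SE 0.48), against 7.58% of the table, and moderated variances called 0. The libraries did not overlap in 5 members, against 11.6% of the table. The median size of the difference was 0.77 SD units over the members and 0.65 over the table. The smallest were those of SARS2 (-0.03, SE 0.61), AIMP2 (0.09, SE 0.47) and TARS (-0.13, SE 0.67).

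Against Tau-S199E, the construct with both mimics differed in 0 of 35 members (limma), against 0.119% of the table, which is 2 genes. At an unadjusted p under 0.05 there were 19 members, against 56.4%, and moderated variances called 21, against 68.8%. The members with the largest differences were AIMP2 (-1.99, SE 0.47, limma adjusted p = 0.0644), EIF2S2 (1.89, SE 0.58, limma adjusted p = 0.0649), EIF5AL1 (1.89, SE 0.66, limma adjusted p = 0.0699), HARS (-1.74, SE 0.58, limma adjusted p = 0.0686) and SARS2 (1.69, SE 0.61, limma adjusted p = 0.071). Tau-K174Q-S199E library 18 lay nearer the Tau-S199E side than libraries 16 and 17 in 31 of 35 members (88.6%), as in 88.6% of the table. It was on the Tau-S199E side of 0, with 16 and 17 on the other, in 21 members (60%), against 69.7% of the table.

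Because library 18 lay nearest the Tau-S199E side in 31 of 35 members, leaving it out widens most differences from Tau-S199E. With any other single library of these constructs left out 0 members passed, against at most 0.358% of the table. Without library 18, 24 members passed against Tau-S199E: 12 initiation factors, 6 elongation factors and 6 synthetases or scaffold proteins, when 78.5% of the table passed. EIF2S2, whose values were 2.01, 1.02 and -0.54 in libraries 16, 17 and 18, then differed by 2.58 (SE 0.38, limma adjusted p = 0.0164). Without libraries 12 and 18 together 10 members passed, against 43.6% of the table. With library 18 alone left out, AIMP2 differed by -2.23 (SE 0.52, limma adjusted p = 0.0184), SARS2 by 2.13 (SE 0.63, limma adjusted p = 0.0242) and GARS by 2.08 (SE 0.53, limma adjusted p = 0.0195). Against Tau-K174Q 0 of 35 members passed (limma), against 0% of the table, and 0 had an unadjusted p under 0.05, against 8.23%. Moderated variances called 0. Without library 18 EIF2S2 (1.89, SE 0.38) and EEF1A1 (-1.71, SE 0.36) passed, both with a limma adjusted p of 0.0403, when 8.47% of the table passed. Without libraries 12 and 18 it was 6 members, against 26.9% of the table.

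The interaction is the difference between the effects of K174Q with and without S199E: (Tau-K174Q-S199E minus Tau-S199E) minus (Tau-K174Q minus Tau-WT). It passed in 34 of 35 members (limma), 17 positive and 17 negative, against 97.0% of the table (45.5% positive and 51.5% negative), and EIF5AL1 did not pass (2.14, SE 0.93, adjusted p = 0.0516). The largest negative values were those of EIF4EBP2 (-2.98, SE 0.82), EIF4H (-2.92, SE 0.60) and EEF1E1 (-2.91, SE 0.80). The largest positive values were those of EIF2S2 (2.87, SE 0.82), SARS2 (2.83, SE 0.86) and EIF3A (2.82, SE 0.73). In EIF2S2 both single mimics lay below Tau-WT, with Tau-K174Q at -0.54, -0.41 and -0.18 and Tau-S199E at -0.98, -0.87 and -1.33. Libraries 16 and 17 of the combined construct lay within or above the Tau-WT values of 1.18, 0.46 and 0.18, but library 18 (-0.54) lay below all of them. The libraries of the combined construct thus overlapped those of Tau-WT and of Tau-K174Q. The interaction gives the sign by which the table divides, and the counts restate that.

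The smallest log2 fold change of a member in the authors' deposited table was 0.49 in size and the largest 2.47. Their median size was 1.15, against 1.36 over all 1676 genes, in the authors' deposited table. That table gives 18 positive and 17 negative values for the members, against 790 and 886 over all 1676 genes. The eIF4 group had a median size of 1.83 and the scaffold proteins of 1.51, whereas the eEF1 and eEF2 genes had 0.81, all in the authors' deposited table. Of its 4 clusters the first held 9 members, the second 9, the third 8 and the fourth 9, out of 535, 255, 353 and 533 genes. EIF4H, EIF4A3, EEF1A1, EIF3E, EIF3M, EIF2D, MARS and TARS2 were those of cluster 3.

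Beyond the genes whose symbols match the rule, 11 of 59 other listed genes that act on translation were in the table. All 11 passed in Tau-S199E against Tau-WT (limma), 4 higher and 7 lower, where 90.0% of the table passed. The list covers recycling, modification of factors, tRNA charging and proofreading, mitochondrial factors and mTOR signalling. It includes FARSA, a subunit of the cytosolic phenylalanyl enzyme whose symbol the rule misses, so it is not counted among the cytosolic synthetases above. FARSA fell (-1.93, SE 0.60, limma adjusted p = 0.0201). The largest differences were those of RPS6KB2, a ribosomal protein S6 kinase (-2.08, SE 0.58, limma adjusted p = 0.0149), TSFM, the mitochondrial elongation factor Ts (2.08, SE 0.57, limma adjusted p = 0.0145), and RHEB, the GTPase that activates mTOR (2.05, SE 0.53, limma adjusted p = 0.0126). RPS6KB2 stood at 0.52, 1.11 and 1.18 with Tau-WT and at -1.27, -0.31 and -1.87 with Tau-S199E. RHEB stood at -1.09, -1.25 and -1.45 and at 0.38, 0.83 and 1.14, with no overlap in either gene. Members of the mTOR pathway on this list therefore lay on both sides. In the other 2 comparisons with Tau-WT 0 of the 11 passed against Tau-WT.

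Some members share their 3′ ends with other genes, which matters where reads come from 3′ ends and counting could split or merge them. Over the last 500 bases of the principal transcripts in GENCODE release 29, the share of 50-base windows also found in another gene's transcripts was 99.6% for EEF1G, 85.8% for EIF3L, 80.9% for EEF1B2, 69.4% for SARS2 and 50.6% for EIF3E. It was up to 41% for EEF1A1, depending on the transcript, up to 38.1% for EIF3F, 34.4% for EIF6, 16% for EEF1D, 13.1% for TARS2 and 7.76% for EIF3I, and the other 24 members shared no window. The partners of EEF1B2, EEF1D, EIF3E and EIF3F in this search were all pseudogenes. The values of these members are uncertain to that extent. Protein-coding genes on the opposite strand overlap the 3′ ends of AIMP2 (EIF2AK1, an eIF2 kinase) and MARS (DDIT3, a stress transcription factor). The same holds for HARS (WDR55), EIF2A (SERP1), EIF2D (RASSF5), EIF2S2 (RALY), EIF3A (NANOS1) and EIF3M (CCDC73). Other opposite-strand genes overlap those of EIF4E2 (AC073254.1) and EEF1D (AC067930.2 and AC067930.6). On the same strand EEF1E1-BLOC1S5 overlaps the 3′ end of EEF1E1, although EEF1E1 shared no window in the search above. Same-strand genes also overlap the 3′ ends of EEF1G (AP002990.1), EIF6 (AL121753.1), SARS2 (AC011455.2) and EIF3L (AL022311.1), all of which shared windows there. Whether the counting used strand is not given in the sources used here.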

How the data were processed

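RNA of SH-SY5Y cells was measured in 12 libraries, 3 for each of 4 tau constructs, made from 400 ng of RNA each with a 3′ mRNA kit, per the labels' protocols. STAR 2.5.3a, RSEM 1.2.31, DESeq2 and the build GRCh38 are listed, without their roles, in the submitters' processing notes. Not given in the sources used here is how reads were transformed, genes filtered and clusters formed. The authors deposited the library values as a score, standardised by gene over the 12 libraries, as the values themselves show. The log2 fold changes were deposited per the file headers with no contrast named. The adjusted p-values were deposited per the file headers too, and the highest is 0.0499. The depth of each library is unknown, so no interval or floor from counts is given. All columns of library values were used, and 0 were left out. The number of libraries limits the precision.

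The standardised values of each gene were fitted in limma 3.58.1 under R 4.3.3 with a mean per construct over all 12 libraries. Contrasts were tested two-sided with the gene's own residual variance, not a moderated one, with Benjamini-Hochberg adjustment over the 1676 genes and a threshold of 0.05. The fit was also run on simulated independent values, without the selection of genes that made this table. That run therefore says nothing on how reliable the calls here are. Exact tests of single values were not used, since 3 libraries against 3 cannot give a p under 0.1. Symbols follow the table; the current symbols of GARS, HARS, MARS, SARS, TARS and VARS end in 1. In each class the members with the 3 largest positive and negative differences (Tau-S199E against Tau-WT) are given library by library for these constructs. So are those that passed neither there nor in the interaction. Their libraries of the other constructs are given for some of them only. Further members are given library by library where a result needed them, chosen after their values were seen. The members, lists and tests were chosen with earlier results of these data known. Alternatives were moderated variances, a threshold of 0.01, the 6 libraries compared, library medians subtracted, each library left out, libraries 12 and 18 left out, and a narrower membership.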

Additional observations from a re-analysis of the deposited data

Results flagged for a closer look

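The effect of K174Q differed between wild-type tau and S199E tau in 34 of the 35 members, by the interaction in the limma fit at an adjusted p under 0.05, which is a difference between the same contrast in 2 settings. The share in the whole table was 97.0%, and the table was made of genes selected by the authors, so the count is no separate evidence. EIF4EBP2 had the largest value in size (-2.98, SE 0.82) and HARS the smallest of those that passed (-2.09, SE 0.82). No group of 3 libraries was tested for outlying samples.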

How the results depend on the processing

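No paired analysis was possible because the columns of the deposited table carry library numbers and not the replicate numbers of the labels. Tau-S199E against Tau-WT gave 32 members. It gave 20 in a fit of the 6 libraries compared (72% of the table) and 5 at an adjusted p under 0.01 (11.3%). With 1 library left out it gave from 15 (without library 12, 49.7%) to 30 (without library 11, 83.7%). With library medians subtracted it gave 31, 13 higher and 18 lower (81.7%). Tau-K174Q against Tau-WT gave 0 members, but 21 with moderated variances (59.9% of the table). It gave 15 in the 6 libraries (48.9%) and 19 without libraries 12 and 18 (58.5%). Tau-K174Q-S199E against Tau-S199E gave 0, but 21 with moderated variances (68.8% of the table) and 10 without libraries 12 and 18 (43.6%). With 1 library left out it gave from 0 to 24 (without library 18, 78.5%). Tau-K174Q-S199E against Tau-K174Q gave 0, but 6 without libraries 12 and 18 (26.9% of the table). With 1 library left out it gave from 0 to 2 (without library 18, 8.47%). The interaction gave 34, but 0 at an adjusted p under 0.01, where 0% of the table passed. Tau-K174Q-S199E against Tau-WT and Tau-K174Q against Tau-S199E gave 0 members in every alternative run. Except where libraries or thresholds were changed, the cause of these shifts was not tested. Differences were recomputed for every member in Tau-S199E or Tau-K174Q against Tau-WT and in Tau-K174Q-S199E against Tau-S199E, and 2 of these, neither of which had passed, changed sign: Tau-K174Q minus Tau-WT of EIF5AL1 was 0.18 without Tau-WT library 2 and ranged from -0.82 to 0.18 with 1 library left out, and Tau-K174Q-S199E minus Tau-S199E of EIF2D was 0.03 without library 17 and ranged from -1.02 to 0.03. The other comparisons were refitted too, but signs were not compared for every member there, and values near 0 can change sign. In EEF1B2, Tau-K174Q-S199E minus Tau-K174Q was -0.00 with all libraries and 0.19 without library 18. A construct with 1 library left out has 2, and residual variances are still shared over the rest. A pseudocount, a filter on low values and count models could not be applied to standardised values, and depth, which would limit small differences, is unknown.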
